A study of Mus musculus with 4 samples.

Results

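The regenerating (Reg) genes encode small secreted proteins built around a C-type lectin fold. They were taken as the array probes that the scanner files name Reg1, Reg2, Reg3a, Reg3b or Reg3g, which gave 5 genes with 1 probe and 1 spot each, of 30342 genes and targets on the array. The family was chosen by name, but selected on its signal differences between these same arrays, so its values are given as a description. Reg1 was first described in regenerating pancreatic islets and is made in large amounts by the exocrine pancreas. Reg3b and Reg3g are antimicrobial lectins of the gut lining, where Reg3g binds the peptidoglycan of Gram-positive bacteria, and interleukin-22 acting through the transcription factor STAT3 is a known inducer of both. In skin, Reg3g and its human counterpart are known from keratinocytes of wounds and of psoriasis-like inflammation, where interleukin-17 induces them and the membrane protein Extl3 serves as a receptor.

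The study asked how loss of Pla2g2f, a secreted phospholipase A2 of the epidermis, affects keratinocytes in primary culture. The 4 groups were Pla2g2f-/- cells with 1 mM added CaCl2, Pla2g2f-/- cells without it, Pla2g2f+/+ cells with 1 mM added CaCl2 and Pla2g2f+/+ cells without it. All cells came from the whole skin of newborn C57BL/6 mice, were freed with 0.05% collagenase A and grown for 3 days before 48 h of treatment; added calcium is the usual switch to terminal differentiation in such cultures. Each group is 1 one-colour array of RNA pooled from 6 mice per genotype, so no difference has a replicate check, no test could be run, and genotype cannot be told apart from cell preparation. A value is called well above background as the scanner software flagged it, and the scanner error is that software's own estimate for a single spot, which holds no spread between cultures. Levels are log2 of the scanner signal minus log2 of that array's 75th percentile, which stood at 3299, 2889, 2737 and 2638 intensity units on the 4 arrays in the order above.

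All 4 arrays lay on 1 slide and came from 1 scan. The scanner software flagged 66.97% to 68.63% of 39429 probes as well above background. The basal keratins Krt5 and Krt14 gave 199400 to 429800 intensity units on every array, and 9 of 10 keratinocyte markers were well above background on all 4; the exception was the suprabasal keratin Krt1, which was well above background only with calcium. Pla2g2f itself gave 286 and 211 intensity units in -/- cells with and without calcium, against 333 and 259 in +/+ cells. Since the labels do not say which exons were removed, this probe checks nothing about the genotype.

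The family split into a pair of genes that differed between the arrays and 3 genes at or near background. Reg1 and Reg3g were both brightest in -/- cells with calcium. Reg2 and Reg3b were not well above background on any of the 4 arrays, and Reg3a lay just above the scanner's limit. The probes for the pair lie on mouse chromosome 6 in the mm9 build, at chr6:78378527-78378586 on the plus strand for Reg1 and chr6:78416420-78416479 on the minus strand for Reg3g. The files assign them to the transcripts of those genes and do not say which part of the transcript they cover. The first 30 of 60 bases of each, 5′ to 3′, are shown because all values of the pair rest on these oligonucleotides; no letter is marked by capitals.
Reg1 probe: ggaccatctatcaaaagcaaattagatcct
Reg3g probe: gagtacagaattgacatcatgggttgatat
No other of 39428 probe sequences on the array shared a run of 20 bases with any Reg probe on either strand. The longest run shared between Reg probes was 8 bases, between Reg1 and Reg3g.

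Reg1 gave a signal of 13763 intensity units in -/- cells with calcium and 1603 in -/- cells without, against 147 in +/+ cells with calcium and 143 in +/+ cells without. Both -/- arrays were therefore far above both +/+ arrays, and the +/+ arrays were nearly equal. The corresponding levels were 2.06 ± 0.14, −0.85 ± 0.14, −4.22 ± 0.18 and −4.21 ± 0.19 log2 (± scanner error, 1 array each), so every neighbouring pair in the order of levels differed by more than the scanner error except the +/+ pair. Within the array of -/- cells with calcium Reg1 was brighter than 86.7% of genes, and on the arrays of -/- cells without calcium, +/+ cells with calcium and +/+ cells without it was brighter than 67.9%, 47.3% and 46.8%. The spot in -/- cells with calcium covered 62 pixels with a mean of 11643 and a median of 11234 units, and no Reg spot was marked as an outlier or as saturated.

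**Figure D1:**
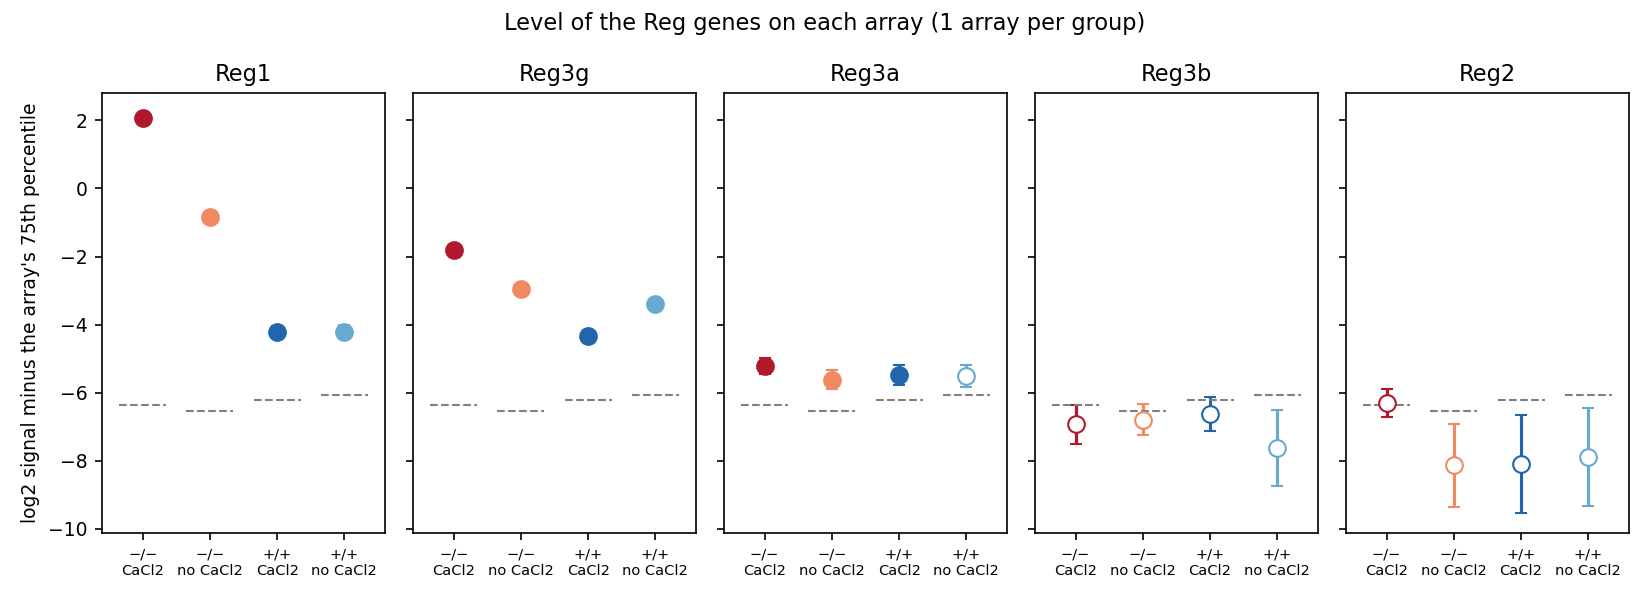
Level of each Reg gene on each array, as log2 signal minus the array's 75th percentile, with the scanner error as bars; open circles were not well above background and dashed lines mark the lowest signal well above background on that array. Reg1 spans from −4.22 to 2.06 and Reg3g from −4.34 to −1.82, while Reg3b and Reg2 stay near or under the dashed lines.

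Reg3g gave 934 intensity units in -/- cells with calcium and 372 in -/- cells without, against 135 in +/+ cells with calcium and 249 in +/+ cells without. Its levels were −1.82 ± 0.15, −2.96 ± 0.15, −4.34 ± 0.18 and −3.41 ± 0.16 log2. The order from high to low was -/- with calcium, -/- without, +/+ without and +/+ with calcium, and each step was larger than the scanner error. The step between the untreated genotypes was the smallest, with a log2 difference of 0.45 and a scanner error of 0.22.

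Reg3a, a further member of the Reg3 group, gave 88.9 and 58.9 units in -/- cells with and without calcium, against 61.2 and 57.7 in +/+ cells with and without calcium. The last of these was not well above background. Reg3b, the close relative of Reg3g in the gut, gave 27.0, 26.1, 27.9 and 13.3 units in the same order, all under the lowest signal well above background on each array (40.4, 31.1, 37.0 and 39.3 units). Reg2, the close relative of Reg1 in the pancreas, gave 41.7, 10.3, 10.1 and 11.1 units. It was not flagged well above background on any array, although its 41.7 units in -/- cells with calcium slightly exceeded that array's lowest such signal. Neither Reg2 nor Reg3b entered a comparison, since both sides were dim in each. Outside the 5 members the array held Reg3d, which gave 159, 148, 141 and 167 units and so was even across the arrays, and Reg4, which was not well above background on any array.

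With calcium, Reg1 was 77.6-fold higher in -/- than in +/+ cells (log2 difference 6.28, scanner error 0.23). This was the highest of 21564 genes compared, and it stayed the highest in each of the 6 alternatives in which ranks were computed. Reg3g was 5.72-fold higher (2.52, scanner error 0.23), which ranked 271. Reg3a differed by 0.27 with a scanner error of 0.38, so its difference lay within that error. Of the 3 members compared, 2 were at least 2-fold higher and 0 lower, and the shares over all genes compared were 6.56% higher and 3.05% lower. The median gene stood at −0.16, and relative to it Reg1 stood at 6.43 and Reg3g at 2.67. In RNA from whole cultures, more cells of a type that makes Reg1 and more Reg1 RNA per cell cannot be told apart.

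Without calcium, Reg1 was 10.3-fold higher in -/- than in +/+ cells (3.36, scanner error 0.24; rank 17 of 21345). Reg3g was 1.37-fold higher, which is under the 2-fold threshold used here. For Reg3a the +/+ array gave only a limit, and the measured signal was 58.9 units in -/- cells and 57.7 in +/+ cells. Thus 1 of 3 members was at least 2-fold higher and 0 lower, where the shares over all genes were 4.65% higher and 4.32% lower.

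**Figure D2:**
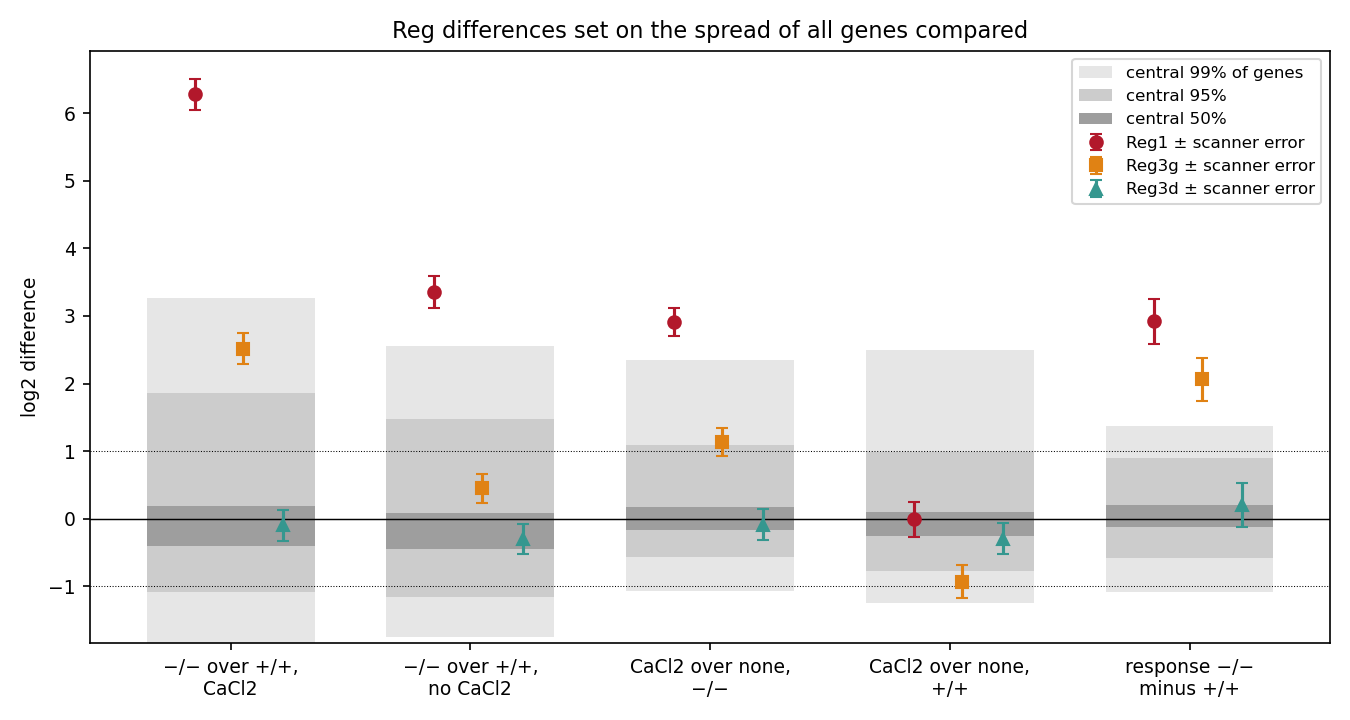
Log2 differences of Reg1, Reg3g and the even family gene Reg3d in the 5 comparisons, with the combined scanner error as bars; nested grey bands hold the central shares of all genes compared that the legend gives and dotted lines mark 2-fold. Reg1 lies outside the widest band in every comparison except the calcium response of +/+ cells, and Reg3g lies outside it in the difference of the responses.

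The calcium response of the genotypes was set side by side. In -/- cells with calcium Reg1 was 7.52-fold higher than in -/- cells without (2.91, scanner error 0.20; rank 62 of 21427), and Reg3g was 2.20-fold higher (1.14, scanner error 0.21; rank 482). Reg3a was 1.32-fold higher, close to its scanner error. That made 2 of 3 members at least 2-fold higher and 0 lower, where the shares over all genes were 2.99% higher and 0.602% lower. With normexp background correction Reg3g stood at 0.95 log2, just under 2-fold, and the count was 1.

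In +/+ cells with and without calcium Reg1 differed by less than its scanner error (−0.01, scanner error 0.26), and Reg3g stood at 52.5% of its untreated signal (−0.93, scanner error 0.24). Reg3a had a signal of 61.2 units with calcium and 57.7 without, where it was not well above background. Of the 3 members compared 0 passed 2-fold in either direction, and the shares over all genes were 2.47% higher and 1.01% lower.

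The response of -/- cells minus that of +/+ cells was 2.92 log2 for Reg1 (scanner error 0.33), the highest of 19225 genes that cleared the background flag on every array, and 2.07 for Reg3g (scanner error 0.32; rank 10). It was 0.21 for Reg3d (scanner error 0.32). Reg3a, Reg2 and Reg3b were dim on at least 1 array and could not be compared. The shares past 2-fold over all genes were 1.91% above 0 and 0.629% below. This value shares its arrays with the 4 comparisons above, so it is not a separate measurement. With detection set at the scanner's weaker flag for a signal different from background, 24265 genes entered, Reg1 ranked 78 and Reg3g ranked 303.

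**Figure D3:**
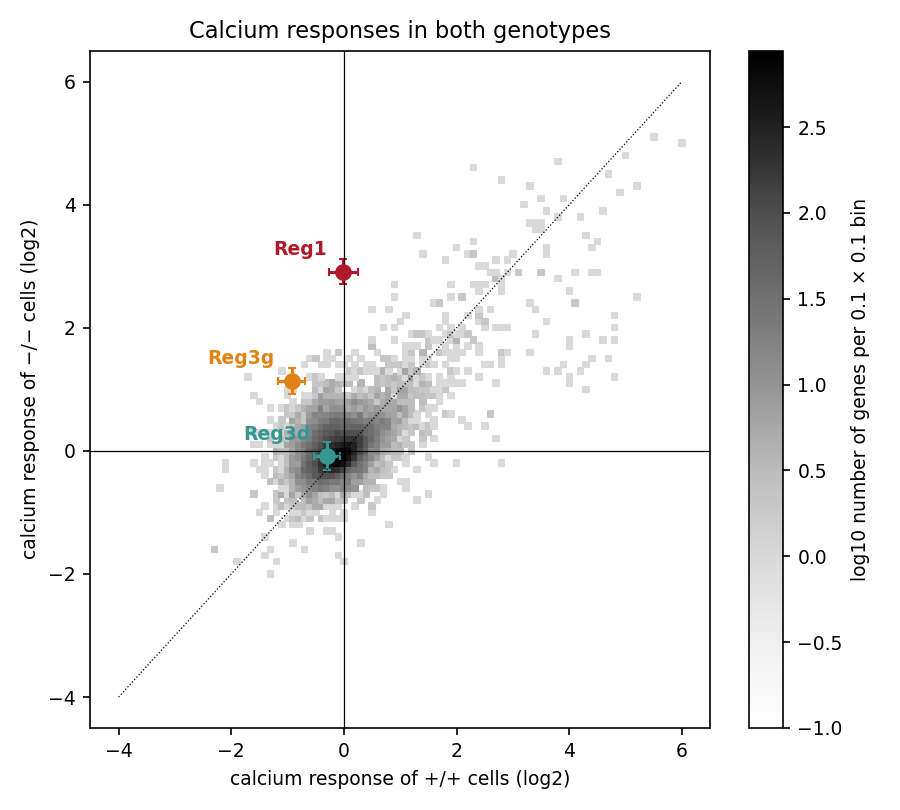
Calcium response of -/- cells (vertical axis, log2) against that of +/+ cells (horizontal axis, log2) for the 19225 genes that cleared the background flag on every array, shown as counts per bin, with the dotted line at equal responses. Reg1 lies at −0.01 and 2.91 and Reg3g at −0.93 and 1.14, both far to the upper left of that line, and Reg3d lies near the origin.

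The Reg genes form a cluster on mouse chromosome 6. In the order of the RefSeq annotation of GRCm38.p6 it runs Reg3b, Reg3d, Reg3a, Reg2, Reg1, a pseudogene and Reg3g, and no other gene with a name of a different family lies inside it. The high genes Reg1 and Reg3g are thus next to each other but for the pseudogene, and Reg2, dim on every array, adjoins Reg1 on its other side. Lrrtm1, the nearest protein-coding gene before the cluster, was well above background on all 4 arrays, and its 4 differences lay between −0.66 and 0.00 log2.

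Promoter sequence is shown for Reg1 and its dim neighbour Reg2, and for Reg3g and its dim relative Reg3b, so that genes that differed on these arrays can be read beside close relatives that were near background. Each run holds the 250 bases before the annotated start, 5′ to 3′ on the gene's strand, from RefSeq on GRCm38.p6. All 7 family genes matched the promoter table. Capitals mark matches to 4 motifs searched on both strands, and no matches overlapped in the runs shown. The TATA box was searched as TATAAA. The E-box, a site of basic helix-loop-helix and zinc finger factors, was searched as CACCTG. The site of AP-1, a dimer of Jun and Fos proteins, was searched as TGANTCA. The site of STAT factors was searched as TTCNNNGAA. The regions are chr6:78425733-78425982 (plus strand) for Reg1, chr6:78404905-78405154 (plus) for Reg2, chr6:78468875-78469124 (minus) for Reg3g and chr6:78370635-78370884 (plus) for Reg3b.
Reg1: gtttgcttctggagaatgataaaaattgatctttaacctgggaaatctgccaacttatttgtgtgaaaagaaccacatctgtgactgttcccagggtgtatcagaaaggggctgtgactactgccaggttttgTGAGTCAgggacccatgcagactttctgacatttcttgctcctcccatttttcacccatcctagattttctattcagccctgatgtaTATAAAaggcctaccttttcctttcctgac
Reg2: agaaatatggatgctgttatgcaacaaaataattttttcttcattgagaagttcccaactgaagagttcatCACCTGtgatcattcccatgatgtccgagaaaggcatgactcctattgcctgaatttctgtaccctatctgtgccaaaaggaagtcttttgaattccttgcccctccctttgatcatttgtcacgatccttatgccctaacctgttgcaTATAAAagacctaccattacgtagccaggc
Reg3g: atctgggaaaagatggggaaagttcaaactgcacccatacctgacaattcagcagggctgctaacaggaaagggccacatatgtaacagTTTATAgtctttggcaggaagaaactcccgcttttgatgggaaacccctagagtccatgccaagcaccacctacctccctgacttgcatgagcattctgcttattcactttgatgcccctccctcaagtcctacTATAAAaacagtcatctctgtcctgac
Reg3b: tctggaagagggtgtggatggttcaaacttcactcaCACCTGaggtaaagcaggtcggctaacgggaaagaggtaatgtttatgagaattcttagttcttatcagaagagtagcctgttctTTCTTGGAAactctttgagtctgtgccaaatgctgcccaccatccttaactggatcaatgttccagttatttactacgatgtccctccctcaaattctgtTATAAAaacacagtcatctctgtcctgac

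A TATA box began 30 bases before the start in both Reg1 and Reg2, 27 before it in Reg3g and 29 before it in Reg3b. Reg3g held a further match on the opposite strand. This motif was present in 4 of 7 family promoters and in 12.4% of 32851 promoter windows of the same length. The STAT motif was found in Reg3b and Reg3d (2 of 7, against 7.02% of windows), the AP-1 motif in Reg1 only (1 of 7, against 6.75%) and the E-box in Reg2, Reg3a, Reg3b, Reg3d and Reg4 (5 of 7, against 17.2%). The motifs were picked with the sequences in view, and a missing match says only that those letters are not in the window. In global alignments Reg3g and Reg3b shared 69.2% of the 250 bases and Reg1 and Reg2 57.2%, and the other pairs of the 7 genes shared 44% to 56.4%.

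The signalling genes upstream of Reg3 induction were looked at from a list of ligands, receptors and targets. Of 14 ligands on the array, 12 could be compared with calcium, of which 0 were at least 2-fold higher in -/- cells and 1 was lower. The shares over all genes were 6.56% higher and 3.05% lower. The list's median was −0.02 log2, against −0.16 over all genes. Il22, the gut inducer of Reg3 genes, gave 130 and 84.8 units in -/- cells with and without calcium, against 104 and 124 in +/+ cells. Il17a was not well above background on any array. Il17f was well above it on every array, at 182 and 85.5 units in -/- cells with and without calcium, against 243 and 149 in +/+ cells. Its -/- to +/+ differences were −0.68 log2 with calcium and −0.93 without, both under 2-fold. Il20, an interleukin-10 family cytokine of skin, was 3.30-fold lower in -/- cells without calcium (42.1 units, against 127 in +/+ cells), and Il19 of the same group was lower too (80.9 units, against 185 in +/+ cells). The 42.1 units lay near that array's lowest signal well above background, 31.1 units. In the response of -/- minus that of +/+ cells, Il19 stood at 1.55 log2 and Il20 at 1.435. With calcium, Il19 and Il20 stood at −1.095 and −0.92 in +/+ cells and at 0.46 and 0.52 in -/- cells. Of 10 ligands compared in the response difference, these 2 were at least 2-fold above 0 and 0 below. The shares over all genes were 1.91% above and 0.629% below. The ligand median was 0.39, against 0.02 over all genes.

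Among 20 receptors and kinases, 19 could be compared with calcium, of which 4 were at least 2-fold higher in -/- cells and 0 lower. The shares over all genes were 6.56% higher and 3.05% lower. The list's median was 0.14, against −0.16 over all genes. The Reg receptor gene Extl3 was bright on every array, with 26320 and 28450 units in -/- cells with and without calcium and 19790 and 23490 in +/+ cells. Il10ra, a receptor chain of blood-derived cells, was 5.72-fold higher in -/- cells with calcium, and Lifr, the receptor for leukaemia inhibitory factor, 4.35-fold. Il22ra1, the specific chain of the interleukin-22 receptor, was well above background with calcium in both genotypes, at 138 units in -/- and 141 in +/+ cells, and was dim without calcium in both. Stat3 itself gave 19510 and 18000 units in -/- cells and 15930 and 15760 in +/+ cells.

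Of 12 STAT3 feedback and target genes, all well above background on every array, 3 were at least 2-fold higher in -/- cells with calcium and 1 lower. The shares over all genes were 6.56% higher and 3.05% lower. The list's median was −0.06, against −0.16 over all genes. Higher were the secreted glycoprotein gene Lrg1 (5.03-fold), Fgl2 (6.42-fold) and Socs1 (2.06-fold), and Nfkbiz, an IκB family regulator that interleukin-17 induces in keratinocytes, was 3.03-fold lower. The feedback inhibitor Socs3 gave 7011 units in -/- cells with calcium and 4696 in +/+ cells with calcium, a difference under 2-fold. No single direction ran through this list.

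Other secreted antimicrobial genes differed in both directions. Of 20 on the array, 15 could be compared with calcium, of which 4 were at least 2-fold higher in -/- cells and 5 lower. The shares over all genes were 6.56% higher and 3.05% lower. The list's median was −0.45, against −0.16 over all genes. Lower in -/- cells were the protease inhibitor Slpi (log2 −1.99), the calprotectin subunits S100a8 (3.54-fold) and S100a9 (3.13-fold), the peptidoglycan-binding Pglyrp3 (3.04-fold) and the beta-defensin Defb1 (2.32-fold). Higher were the lysozymes Lyz2 (8.42-fold) and Lyz1 (6.70-fold), whose near-identical transcripts the probes may not separate, and the ribonuclease family genes Rnase4 (3.66-fold) and Ang4 (2.79-fold). Without calcium 13 could be compared, of which 4 were at least 2-fold higher and 5 lower, where the shares over all genes were 4.65% and 4.32%. The same 4 genes were higher in -/- cells, 3.71-fold for Lyz2, 3.14-fold for Lyz1, 3.18-fold for Rnase4 and 2.83-fold for Ang4. Lower in that comparison were S100a8 (5.38-fold), Slpi (3.57-fold), Pglyrp3 (2.72-fold), Lcn2 (2.45-fold) and S100a9 (2.34-fold). The log2 response of -/- minus that of +/+ cells was 1.18 for Lyz2 and 1.09 for Lyz1, against 0.21 for Rnase4 and −0.02 for Ang4. The beta-defensin Defb14, which like Reg1 was far higher with calcium in -/- cells, was so in +/+ cells too, at 4797 units with and 122.5 without calcium in -/- cells and 4164 with and 86.6 without in +/+ cells.

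Markers of other cell types were set beside the Reg values. The lists overlap, so their counts are not separate. Lyz2 is in the antimicrobial and myeloid lists, Mrc1 in the myeloid and C-type lectin lists, and S100a8 and S100a9 in the antimicrobial and neutrophil lists. Of 12 myeloid markers 11 could be compared, and 9 were at least 2-fold higher in -/- than in +/+ cells both with and without calcium. The shares over all genes that were at least 2-fold higher were 6.56% with calcium and 4.65% without. The myeloid medians were 3.07 and 1.84 log2, against −0.16 and −0.18 over all genes. The summed signal of the 12, in multiples of each array's 75th percentile, was 38.8 and 29.4 in -/- cells with and without calcium, against 7.79 and 9.88 in +/+ cells. Adgre1, which encodes the macrophage antigen F4/80, gave 3388 and 1669 units in -/- cells and 170 and 312 in +/+ cells, and the mannose receptor gene Mrc1 13090 and 4850 against 462 and 606. The Langerhans cell lectin Cd207 was not well above background on any array. Of 10 keratinocyte markers compared with calcium, 0 were higher in -/- than in +/+ cells. Without calcium 9 could be compared, and again 0 were higher. Their medians were −0.37 and −0.26 log2, against the same −0.16 and −0.18 over all genes, and 0 were at least 2-fold lower. In the same multiples the 10 summed to 342.1 and 381.5 in -/- cells with and without calcium, against 470.1 and 461.8 in +/+ cells. The part of myeloid RNA in the Reg values was not tested.

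The sizes can be read side by side. With calcium, the -/- to +/+ difference was 6.28 for Reg1 and 2.52 for Reg3g, with a myeloid median of 3.07. Without calcium it was 3.36 for Reg1 and 0.45 for Reg3g, with a myeloid median of 1.84. The calcium response of -/- cells was 2.91 for Reg1 and 1.14 for Reg3g, with a myeloid median of 0.55, and that of +/+ cells was −0.01 and −0.93, with a myeloid median of −0.56. The response of -/- minus that of +/+ cells was 2.92 for Reg1 and 2.07 for Reg3g, with a myeloid median of 1.14. Reg1 was thus above the myeloid median in all 5 comparisons, and Reg3g was above it in the calcium response of -/- cells and in the difference of the responses.

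**Figure D4:**
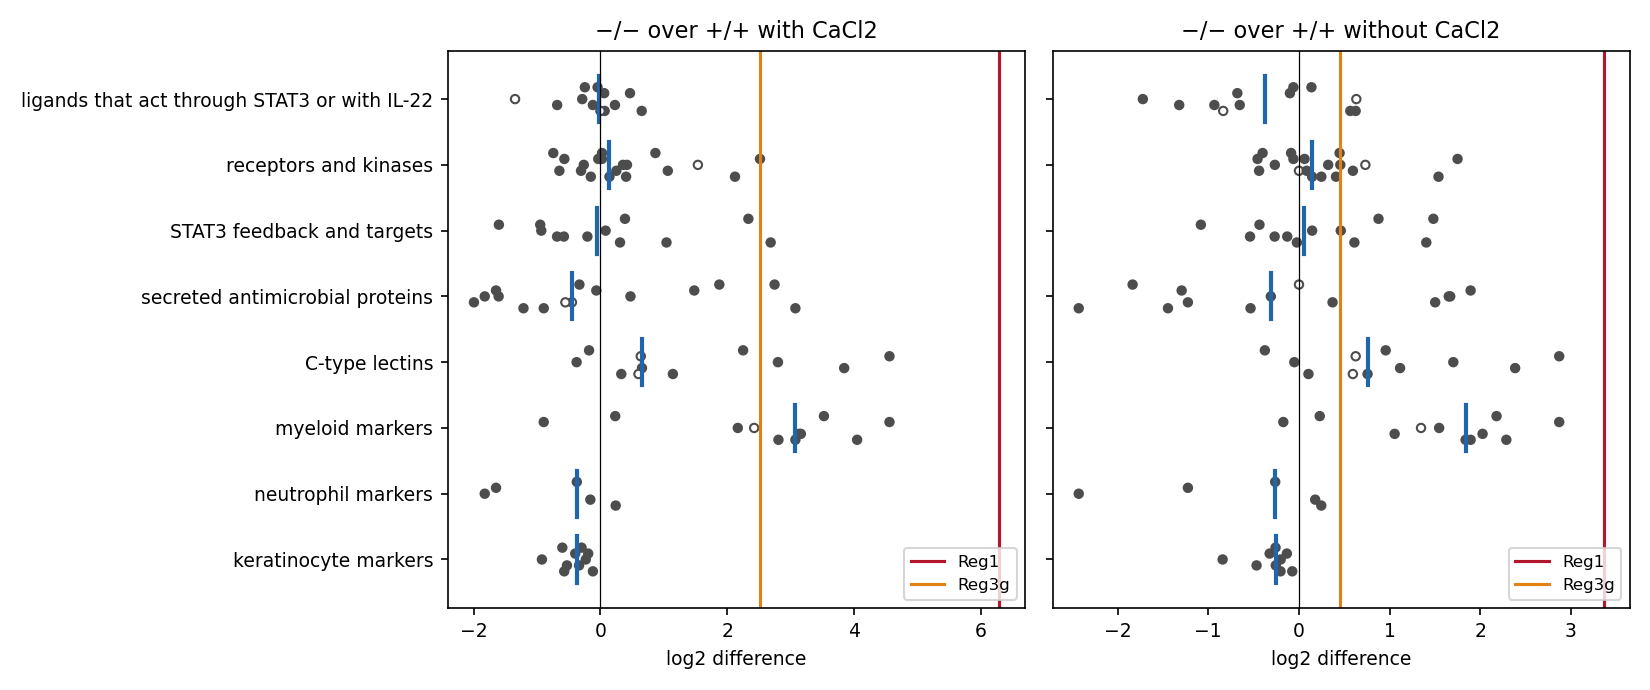
Log2 differences between -/- and +/+ cells with calcium (left) and without (right) for the genes of 8 lists, 1 point per gene, with blue bars at the medians, open points for lower bounds and coloured lines for Reg1 and Reg3g. Reg1 at 6.28 lies beyond every listed gene with calcium and at 3.36 beyond every one without; the myeloid markers, with a median of 3.07, are the list furthest to the right.

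From the list of C-type lectins of the epidermis and myeloid cells, 11 could be compared with calcium. Of these, 5 were at least 2-fold higher in -/- cells and 0 lower, where the shares over all genes were 6.56% and 3.05%. The list's median was 0.65, against −0.16 over all genes. The 5 higher genes were Mrc1 (23.5-fold), the galactose-type lectin Clec10a (14.3-fold), Clec4d (6.95-fold), Clec4n, which encodes dectin-2 (log2 2.25), and the scavenger receptor Colec12 (2.21-fold). Sftpd, a secreted collectin of the lung, gave 137 and 98.0 units in -/- cells with and without calcium, against 129 and 116 in +/+ cells.

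Markers of the tissues best known for Reg expression were low. Of 13 pancreatic acinar markers, 4 (Cpb1, Cela2a, Cela3b and Pnlip) were not well above background on any array, and the summed signal of the list was 0.737 and 0.692 times the 75th percentile in -/- cells with and without calcium, against 0.904 and 0.854 in +/+ cells. The elastase Cela1 gave 617 and 635 units in -/- cells with and without calcium, against 158 and 206 in +/+ cells. Of 12 intestinal epithelial markers, 6, among them Vil1, Cdx2, Alpi and Muc2, were not well above background on any array, and 0 of 6 compared with calcium passed 2-fold in either direction. The summed signal of the intestinal list was 1.43 and 1.44 times the 75th percentile in -/- cells with and without calcium, against 0.865 and 1.11 in +/+ cells. Among neutrophil markers, Mpo, Cxcr2 and Retnlg were not well above background on any array; of 5 compared with calcium 0 were at least 2-fold higher and 2, S100a8 and S100a9, were lower. Of 4 lymphoid markers compared, 1 was higher, Il7r at 6.46-fold, while Cd3g was not well above background on any array. Over all genes compared with calcium the shares past 2-fold were 6.56% higher and 3.05% lower.

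The genes nearest to each of the pair in pattern were sought among the same 19225 genes. Likeness was measured as the root mean square difference between the 4 log2 levels after each gene's own mean was subtracted. For Reg1 the nearest were P2ry6, a receptor for uridine nucleotides (0.80), Mrc1 (0.82), the complement chain C1qa (0.84), the coagulation factor subunit F13a1 (0.86) and the carbonic anhydrase Car3 (0.87). None was close, since each spanned less than Reg1: P2ry6 gave 2350 and 969 units in -/- cells with and without calcium and 94.1 and 86.0 in +/+ cells. For Reg3g they were much nearer, namely the ion channel gene Mcoln2 (0.18), Clec4n (0.22), the sialic acid lyase Npl (0.23), the phosphatase Ptpro (0.24) and the transporter Slc37a2 (0.24). Mcoln2 gave 2153 and 1157 units in -/- cells with and without calcium, against 395 and 602 in +/+ cells. These are likenesses over 4 arrays and carry no test.

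**Figure D5:**
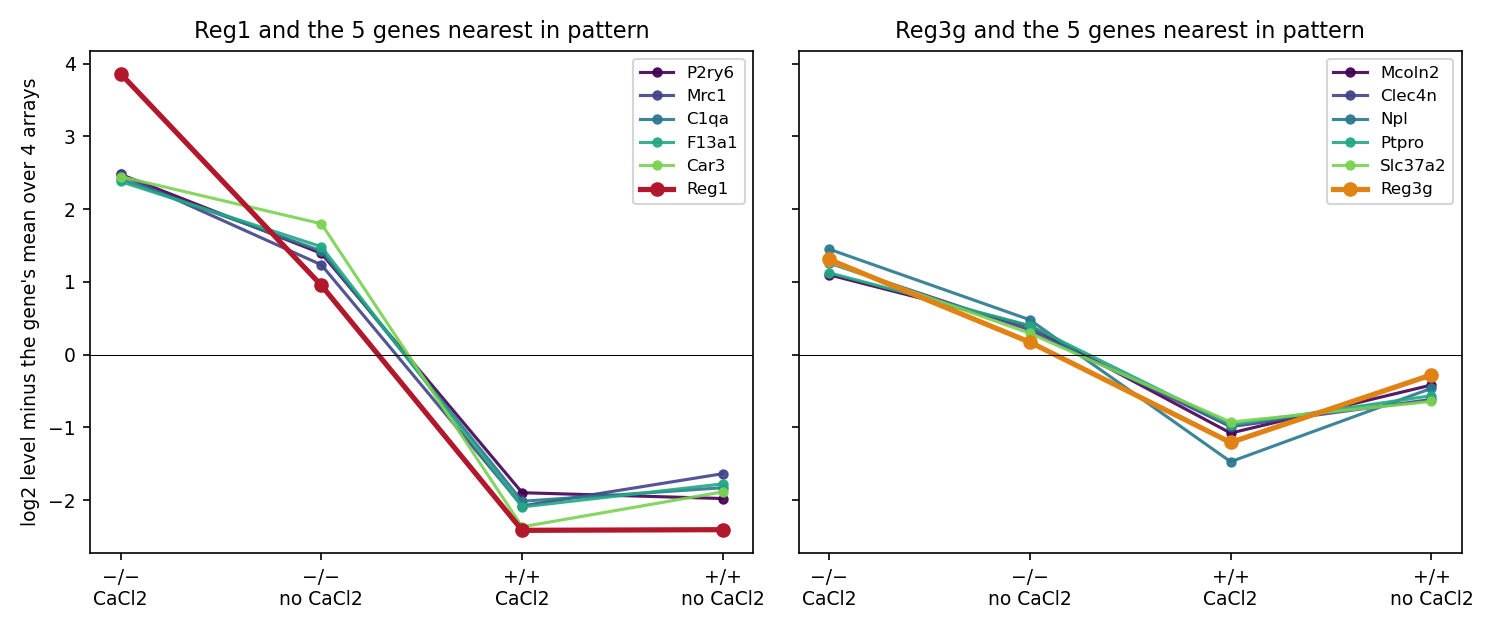
Centred log2 levels over the 4 arrays (each gene's level minus its own mean) for Reg1 with its 5 nearest genes (left) and Reg3g with its 5 nearest genes (right). Reg1 exceeds its nearest genes in -/- cells with calcium and lies below them in -/- cells without calcium, whereas Reg3g stays close to its nearest genes on all 4 arrays.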

How the data were processed

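RNA from each of the 4 cultures was labelled with Cy3 (200 ng per array, per the labels) and read with Agilent Feature Extraction 11.5.1.1, per the submitters' processing notes. The deposited signals are an intensity, background-subtracted and detrended within each array and not scaled across arrays, as stated per the file headers. The deposited value table is a ratio, the authors' signal divided by 1 constant per array, as a comparison over 44397 spots showed. Spots flagged as outliers were dropped, log2 signals were centred on the 75th percentile of the 43020 spots that are not controls, and the brightest probe stood for a gene. Of 39429 probes 27508 were named through RefSeq transcript accessions and 11921 kept the file's name; probe positions are mm9. A gene was compared where 1 or both arrays flagged it well above background, a dim side being held at the higher of its own value and that array's lowest signal well above background. The difference of responses needed all 4 arrays. Genes were counted at 2-fold; there was no test, and precision is limited by how few arrays there were. Genes were named by rule: every member, up to 4 genes per list and comparison with the largest difference plus markers at background, and the 5 genes nearest in pattern. Il22, Il17a, Extl3, Stat3, Socs3, Il22ra1, Defb14, Sftpd and Lrrtm1 were added for their role or position. Colec12, Pglyrp3, Defb1, Ang4 and Lcn2 were named after their values were seen, so that the antimicrobial counts and the lectin count with calcium have their genes. Il17f was likewise named after its values were seen, beside Il17a. Some counts of other lists are given without naming every gene. The members and lists were chosen with earlier results of these data known. Il36a, Il36b, Il36g, Amy2b and Trdc were not found on the array under those names. The result of 1 pancreatic acinar marker, and the counts past 2-fold for that list, are not reported here. Alternatives covered scaling, background correction, probes, threshold, filter and detection. The calling step was tested on simulated data. Software was Python 3.11.15, numpy 2.4.6, pandas 2.3.3, biopython 1.88, R 4.3.3 and limma 3.58.1.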

Additional observations from a re-analysis of the deposited data

Results flagged for a closer look

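Calcium moved Reg1 and Reg3g differently in the genotypes, and the difference was not tested, since each group is 1 array. Reg1 was 2.91 log2 higher with calcium in -/- cells and −0.01 in +/+ cells, so the response of -/- minus that of +/+ cells was 2.92. The +/+ value lay within its scanner error of 0.26, so for Reg1 only the response of -/- cells stands clear of that error. Reg3g was 1.14 higher with calcium in -/- cells and −0.93 in +/+ cells, a difference of 2.07, and both responses were larger than their scanner errors of 0.21 and 0.24. Such a difference of responses was not particular to the Reg genes. Of 10 myeloid markers compared in it, 6 were at least 2-fold above 0 and 0 below, with a median of 1.14. Of 9 C-type lectins of the epidermis and myeloid cells, a list that shares Mrc1 with the myeloid markers, 4 were above and 0 below. The shares over all genes were 1.91% above and 0.629% below.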

How the results depend on the processing

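Each comparison was recomputed under 9 alternatives, and no value at 2-fold or more changed sign. With normexp background correction (offset 50) the -/- to +/+ difference with calcium was 5.57 for Reg1 and 1.86 for Reg3g, that of Reg1 without calcium 2.72, the calcium response of Reg3g in +/+ cells −0.65, and the response difference of Reg3g 1.59; the lower values lie at the dim end, where the added offset compresses folds by construction. The count of members at least 2-fold higher with calcium in -/- cells was 1 in place of 2 with normexp correction and 1 with a 3-fold threshold. With no filter, or with the scanner's weaker detection flag, dim Reg3b entered at 1.01 in the calcium response of +/+ cells (scanner error 1.22) and −1.15 in the response difference (1.42), so 1 member was then higher and 1 lower there. Dim Reg2 entered too, at 1.78 between -/- and +/+ cells with calcium (scanner error 1.4997) and 1.83 in the -/- response (1.28), so 3 members in place of 2 were higher in both. With no filter it also entered the response difference, at 2.02 (2.41), where 3 were then higher. Over all alternatives Reg1 ranged from 5.57 to 6.33 with calcium, 2.72 to 3.42 without and 2.84 to 2.99 in the -/- response; its +/+ response turned sign under quantile scaling (0.08) within its scanner error. Counts over all genes moved more, given as higher and lower. Without calcium 992 and 922 became 1161 and 399 with quantiles and 654 and 188 with normexp, and the lower count 525 with detection required on both arrays and 2982 with no filter. With calcium 1414 and 658 became 948 and 374 with normexp and 2162 and 1361 with no filter. The -/- response had 640 and 129, against 484 and 178 with quantiles, 318 and 26 with normexp and 1919 and 447 with no filter. The +/+ response had 522 and 214, against 328 and 62 with normexp and 886 and 1097 with no filter. The response difference had 367 and 121, against 187 and 184 with quantiles, 114 and 66 with normexp and 3098 and 746 with no filter. Detection on both arrays gave lower counts of 59 and 128 in the -/- and +/+ responses. The weaker flag gave nearly the counts of no filter, except 1887 and 354 in the response difference. At 3-fold the counts were 717 and 176, 461 and 158, 251 and 24, 239 and 46, and 47 and 40 for the differences with and without calcium, the -/- and +/+ responses and their difference. No paired analysis was possible because each group holds 1 array. Reg2 and Reg3b signals were too close to background for any order among arrays.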
